A study of Mus musculus with 51 samples.

Results

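Cyclopentadecanone (CPD), a macrocyclic ketone with a musk odor, was tested on live mice by pS6-IP-Seq, in which an antibody to phosphorylated ribosomal protein S6 pulls down ribosomes and their mRNA from recently active cells. The 6 libraries described here are those labelled with CPD as the odorant, of 51 libraries in the series: 3 from mice exposed to CPD and 3 from mice exposed to diluent. Each library came from whole olfactory mucosa of C57BL/6J mice about 3 weeks old, of both sexes and litter matched. Mice spent 1 hr in a clean container and then 1 hr with 10 μL of 100 mM CPD or of diluent on a blotting pad. The labels do not name the diluent, and the study's methods give ethanol for CPD. Counts were deposited for 1117 olfactory receptor (OR) genes only, so markers of other cell types, and of the mucosa itself, were not checked.

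Each mature olfactory sensory neuron (OSN) transcribes a single OR gene, and an odorant that activates the receptor leads to phosphorylation of S6 in that neuron. The transcript of an activated receptor then takes a larger share of the immunoprecipitated OR mRNA. Macrocyclic musks such as muscone are known to act on a small group of ORs of the MOR214 and MOR215 families, which lie next to each other in an OR cluster on mouse chromosome 19. In bulk mucosa, more neurons of a type and more RNA per neuron cannot be told apart. The question was which ORs gained share after CPD, and whether the 3 exposed libraries showed it alike.

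A list of 6 musk ORs was followed, of which *Olfr235*, *Olfr1431*, *Olfr1434*, *Olfr1437* and *Olfr1440* had a row in the CPD table and *Olfr1433* did not. *Olfr1440* carries the older name MOR215-1, and the other 4 are MOR214 receptors, *Olfr235* being MOR214-3, *Olfr1434* MOR214-4, *Olfr1431* MOR214-5 and *Olfr1437* MOR214-6. On GRCm38 the genes span chr19:12200634-12212191 for *Olfr1431*, chr19:12261032-12270387 for *Olfr235*, chr19:12279854-12285626 for *Olfr1434*, chr19:12319207-12325101 for *Olfr1437* and chr19:12387279-12401584 for *Olfr1440*. *Olfr1437* is on the minus strand and the other 4 are on the plus strand, and each has its whole coding sequence in 1 exon. The coding sequences hold 936 bases, 945 in *Olfr1440*, without the stop codon. Their likeness matters for the counts, so the same 150 bases of each coding sequence are printed 5′ to 3′, from the GRCm38 genome. They start at base 292 of each coding sequence and surround the codons for aspartate, arginine and tyrosine at the inner end of a membrane-spanning segment, a motif that ORs share. In the *Olfr1437* line the capitals mark these 9 bases, and in the other lines they mark each base that differs from *Olfr1437*.
Olfr1437: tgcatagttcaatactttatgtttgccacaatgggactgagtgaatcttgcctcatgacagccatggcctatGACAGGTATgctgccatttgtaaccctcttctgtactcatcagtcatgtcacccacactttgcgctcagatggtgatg
Olfr1434: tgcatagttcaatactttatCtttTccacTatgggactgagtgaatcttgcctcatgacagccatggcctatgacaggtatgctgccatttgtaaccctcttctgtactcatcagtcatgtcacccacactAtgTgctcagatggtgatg
Olfr235: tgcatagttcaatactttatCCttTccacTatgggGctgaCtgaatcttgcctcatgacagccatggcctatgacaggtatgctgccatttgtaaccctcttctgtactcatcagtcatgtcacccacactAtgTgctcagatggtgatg
Olfr1431: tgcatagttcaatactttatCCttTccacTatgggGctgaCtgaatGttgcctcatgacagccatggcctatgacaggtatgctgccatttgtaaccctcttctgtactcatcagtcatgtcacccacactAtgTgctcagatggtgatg
Olfr1440: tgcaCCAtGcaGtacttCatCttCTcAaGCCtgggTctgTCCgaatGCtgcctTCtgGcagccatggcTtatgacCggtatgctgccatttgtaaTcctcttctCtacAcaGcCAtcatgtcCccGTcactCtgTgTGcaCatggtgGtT
These windows are chr19:12322385-12322534 on the minus strand for *Olfr1437*, and chr19:12283341-12283490, chr19:12268523-12268672, chr19:12209859-12210008 and chr19:12394556-12394705 on the plus strand for *Olfr1434*, *Olfr235*, *Olfr1431* and *Olfr1440*. The window of *Olfr1434* differed from that of *Olfr1437* at 5 bases, *Olfr235* at 8, *Olfr1431* at 9 and *Olfr1440* at 40.

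Over whole coding sequences *Olfr235* and *Olfr1431* were identical at 96.5% of aligned bases. *Olfr1437* shared 89.5% with *Olfr1434*, 83.4% with *Olfr235* and 82.8% with *Olfr1431*, and *Olfr1440* shared at most 69.2% with any of the others. Stretches of 50 bases that also occur in another gene made up 12.9% of the longest transcript of *Olfr235*, 14.8% of *Olfr1431*, 6.68% of *Olfr1434* and 10.8% of *Olfr1437*, all of them including stretches shared with the other MOR214 genes. In *Olfr1440* the share was 0.995%. *Olfr1436*, a further MOR214 gene 96.3% identical to *Olfr1437*, was listed at 0 reads in all 6 libraries. Reads from such stretches were divided by the authors' estimation, so the split between *Olfr235* and *Olfr1431*, and between *Olfr1437* and its nearest relatives, is less certain than their sum.

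The CPD control libraries held 52921, 63181 and 69013 reads on OR genes and the exposed libraries 60638, 145910 and 102328, in the order of replicates 1 to 3, on 1046 to 1066 ORs each. Each pair of replicates differed by more than counting noise, the chi-squared statistic over its degrees of freedom running from 5.6 to 22.5 in the 6 pairs. The study's legend counts mice as the replicates of each group, and the labels do not tie a library to a mouse. The largest shares were ordinary ones: *Olfr140* took 3.15%, 2.92% and 2.24% of OR reads in the controls and led exposed replicates 1 and 2 with 3.32% and 2.45%, and *Olfr536* led exposed replicate 3 with 2.46%.

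The library labelled CPD exposed replicate 2 stood apart from the other exposed libraries. This was read with 10 ORs chosen on other libraries: those higher after 100 μM of (methylthio)methanethiol (MTMT), a thiol of male mouse urine, with the lowest p, of which 3 passed an adjusted p of 0.05 (*Olfr1295*, *Olfr165* and *Olfr56*). Of these 10, 8 had a larger share in the library labelled CPD exposed replicate 2 than in all 6 control libraries of the CPD and 10 mM MTMT experiments, where 6.67% of all 1050 tested ORs did. The counts were 0 in CPD exposed replicate 1 (10.4% of all tested ORs) and 1 in replicate 3 (11.1%). In the libraries labelled 10 mM MTMT exposed replicates 1, 2 and 3 they were 1, 7 and 6, against 10.5%, 6.76% and 7.33% of all tested ORs. *Olfr1082*, 1 of the 8, took 0.035% in CPD exposed replicate 2 against a highest control of 0.0338%. It took 0.0131%, 0.00705% and 0.0176% in the libraries labelled 10 mM MTMT exposed replicates 1, 2 and 3.

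*Olfr1295*, the OR with the lowest p after 100 μM MTMT in its own libraries (edgeR adjusted p = 0.00204), took 0.106%, 0.106% and 0.113% of OR reads in the CPD controls and 0.0858%, 0.432% and 0.101% in exposed replicates 1, 2 and 3. *Olfr224* took 0.163%, 1.26% and 0.228% in the exposed libraries and at most 0.218% in their controls. *Olfr1395* took 0.519%, 1.98% and 0.325%, against at most 0.459%. For all 3 receptors exposed replicate 2 lay above every control, and replicates 1 and 3 lay near the controls. The same receptors in the libraries labelled 10 mM MTMT exposed replicates 1, 2 and 3 were at 0.0876%, 0.424% and 0.491% for *Olfr1295* and at 0.124%, 1.55% and 1.54% for *Olfr224*, so that there the first replicate was the low one. *Olfr56*, which passed after 100 μM MTMT, went otherwise. It took 0.132%, 0.191% and 0.174% in the CPD exposed libraries, against 0.102%, 0.492% and 0.223% in their controls. In no exposed library of either experiment did it exceed all 6 controls.

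**Figure D1:**
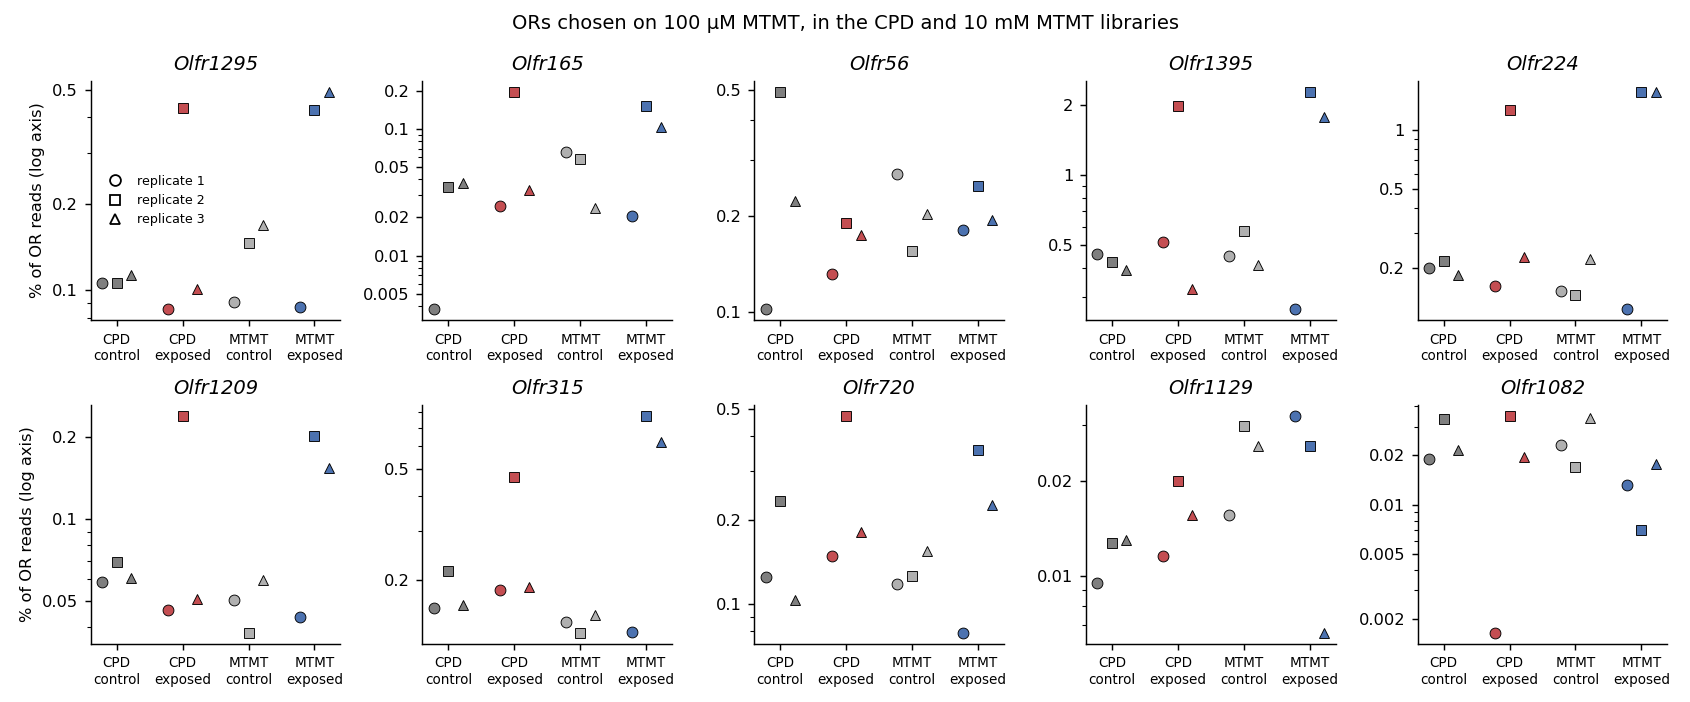
Share of OR reads (%, log axis) of the 10 ORs chosen on 100 μM MTMT, 1 panel per OR, in the 12 libraries of CPD and 10 mM MTMT. Points are single libraries, with circles, squares and triangles for replicates 1, 2 and 3. The library labelled CPD exposed replicate 2 sat above all 6 controls in 8 of the 10 panels, in *Olfr1082* at 0.035% against 0.0338%. The library labelled 10 mM MTMT exposed replicate 1 sat above them in 1.

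The musk ORs gave a different picture, though not in every library. All 5 exceeded all 6 controls in CPD exposed replicate 1 and in the library labelled 10 mM MTMT exposed replicate 1, with 1 of 5 in CPD exposed replicate 2, 2 in CPD exposed replicate 3, 0 in 10 mM MTMT exposed replicate 2 and 1 in replicate 3. The background shares are those given above for the same libraries. The 1 musk OR in CPD exposed replicate 2 and in 10 mM MTMT exposed replicate 3 was *Olfr1437*. In the latter library it took 6.29% of OR reads, and the 5 musk ORs together took 6.42%, the largest sum of all 51 libraries. The titles of CPD exposed replicate 2 and 10 mM MTMT exposed replicate 1 carry the same prefix, 3046. Whether the labels of these 2 libraries were exchanged was not tested, and both keep their labels below. The main edgeR calls and the log2 fold changes of the musk ORs are given with and without the library labelled CPD exposed replicate 2. Exact permutation p-values are given with it only. CPD control replicate 1 also stood apart from the other controls in *Olfr235*, *Olfr1431* and *Olfr1440*, as given below.

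*Olfr1437* was the receptor with the lowest p among all ORs. It had 19, 28 and 27 reads in control replicates 1, 2 and 3 and 437, 150 and 90 in exposed replicates 1, 2 and 3. As a share of OR reads this was 0.0359%, 0.0443% and 0.0391% against 0.721%, 0.103% and 0.088%. Every exposed library lay above every control, and the 95% Wilson interval of the lowest exposed share (0.0716% to 0.108%) lay above that of the highest control share (0.0307% to 0.064%). These intervals cover counting error only. The size was uneven, at 20.1 times the control of the same number in replicate 1, 2.32 times in replicate 2 and 2.25 times in replicate 3. *Olfr1437* was the only musk OR whose groups did not overlap, and 2.19% of all 1050 tested ORs had all 3 exposed shares above all 3 controls. Its exact permutation p (two-sided) was 0.1, the smallest that 3 libraries against 3 can give.

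*Olfr1440*, the MOR215 receptor of the group and a known muscone receptor, was highest in exposed replicate 1. It took 0.212%, 0.0617% and 0.071% of OR reads in the controls and 1.42%, 0.0315% and 0.173% in the exposed libraries. Replicate 1 rose above all controls, replicate 3 lay between control replicate 1 and the other controls, and replicate 2 lay below all controls. Against the control of the same number the ratios were 6.73 in replicate 1, 0.511 in replicate 2 and 2.44 in replicate 3. The exact permutation p was 0.7.

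*Olfr235* took 0.497%, 0.038% and 0.0507% in the controls and 1.04%, 0.0432% and 0.426% in the exposed libraries. Control replicate 1 was above exposed replicates 2 and 3, so the groups overlapped (exact permutation p = 0.6). Within equal replicate numbers the ratio was 2.09, 1.14 and 8.4. *Olfr235* had the largest gain in log2 share of all 1050 tested ORs in replicate 3 and had rank 55 in replicate 1, where log2 shares per 100000 OR reads carry a pseudocount of 5.

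Its near copy *Olfr1431* took 0.178%, 0.0095% and 0.0232% in the controls and 0.191%, 0.0247% and 0.153% in the exposed libraries. The 2 highest exposed libraries and control replicate 1 were close to each other, and the other 3 libraries were lower (exact permutation p = 0.4). The ratio to the control of the same number was 1.08, 2.6 and 6.62. In replicate 3 *Olfr1431* had rank 2 of all tested ORs, behind *Olfr235*.

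*Olfr1434* was the least counted of the group, with 10, 1 and 9 reads in the controls and 53, 8 and 32 in the exposed libraries. Its shares were 0.0189%, 0.00158% and 0.013% in the controls and 0.0874%, 0.00548% and 0.0313% in the exposed libraries. Exposed replicates 1 and 3 lay above all controls and replicate 2 did not (exact permutation p = 0.4). The ratios to the control of the same number were 4.63, 3.46 and 2.4, of which the 3.46 rests on 1 control read (95% exact interval from 0.464 to 154).

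**Figure D2:**
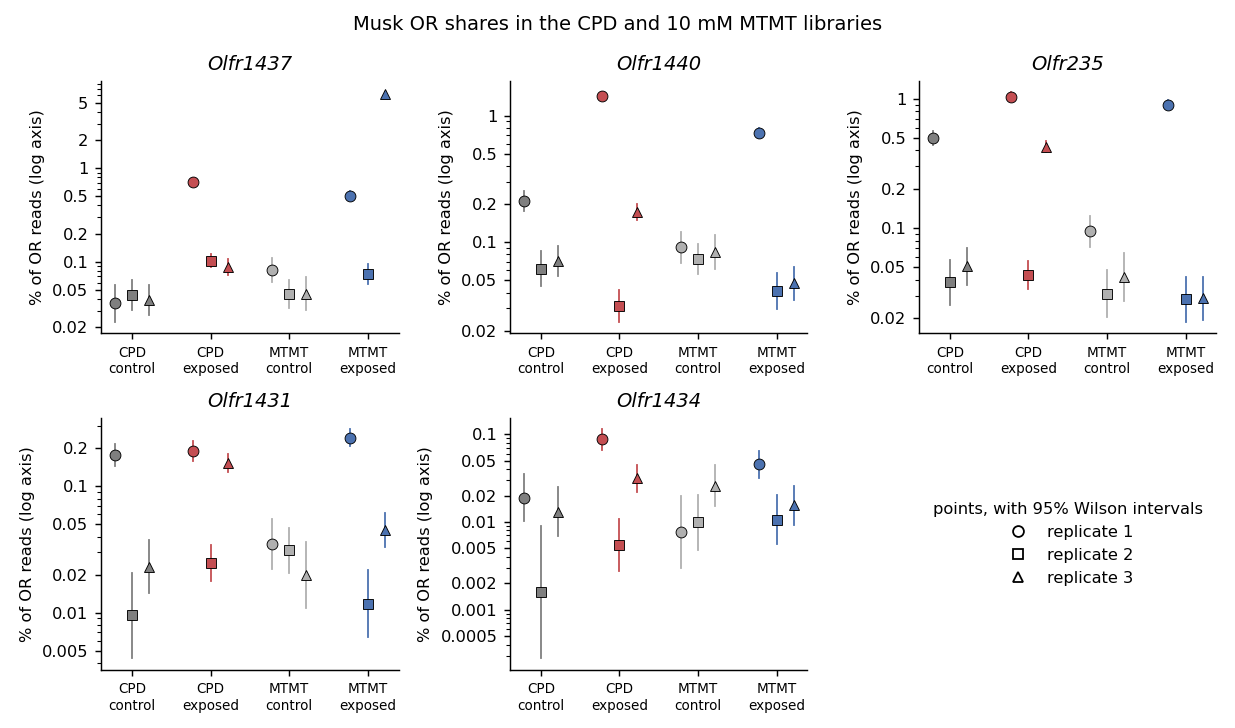
Share of OR reads (%, log axis) of the 5 musk ORs, 1 panel per OR, in the 12 libraries of CPD and 10 mM MTMT, with 95% Wilson intervals (counting error) as vertical lines. Circles, squares and triangles are replicates 1, 2 and 3. In each panel the circle of CPD exposed is the highest CPD library and the circle of MTMT exposed lies above all 6 controls, whereas the square of CPD exposed lies above them only for *Olfr1437*.

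Over the 5 musk ORs, exposed replicate 1 exceeded all 3 controls for 5, where 20.5% of all tested ORs did. Exposed replicate 2 did so for 1 (12.2%) and exposed replicate 3 for 2 (20.8%). Replicates 1 and 3 both exceeded all 3 controls for *Olfr1434* and *Olfr1437*, against 6.24% of 1041 ORs. Against the control of the same number, all 5 were higher in replicate 1 (45.6% of all tested ORs) and in replicate 3 (51.6%), and 4, all but *Olfr1440*, were higher in replicate 2 (32.8%). The gain in log2 share gave *Olfr1437* rank 1, *Olfr1440* rank 3 and *Olfr1434* rank 11 in replicate 1. In replicate 2 the highest rank of a musk OR was 55, for *Olfr1437*. Against the control of the same number, *Olfr1437* and *Olfr1440* gained most in replicate 1, and *Olfr235* and *Olfr1431* in replicate 3. This order depends on control replicate 1, which was high for *Olfr235* (0.497%) and *Olfr1431* (0.178%). By share alone both were higher in exposed replicate 1 (1.04% and 0.191%) than in exposed replicate 3 (0.426% and 0.153%). Replicates 1 and 2 carry title prefix 3046 and replicate 3 carries 3134, so the values of replicate 3 are also those within its prefix.

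Across the 6 libraries, no OR was called by the quasi-likelihood test of edgeR after Benjamini-Hochberg adjustment: 0 of 1050 tested were higher (0%) and 0 were lower at an adjusted p of 0.05, and the smallest adjusted p was 0.993. At an unadjusted p under 0.05 there were 40, of which 30 were higher (2.86%). The musk list had 2 of its 5 among these, *Olfr1437* and *Olfr1440*. The log2 fold change was 2.97 (SE 0.70) for *Olfr1437*, 2.29 (SE 0.98) for *Olfr1440*, 1.88 (SE 0.88) for *Olfr1434*, 1.45 (SE 0.99) for *Olfr235* and 0.91 (SE 0.84) for *Olfr1431*, with edgeR adjusted p of 0.993 for each. All 5 were positive with a median of 1.88, beside a median of -0.02 over all ORs tested. *Olfr1437* passed the threshold in the same 6 libraries with DESeq2 (adjusted p = 0.00231) and with edgeR's likelihood ratio test (adjusted p = 0.0288). Its log2 fold change was 2.33 with the replicate block, and over 25 settings it ran from 1.45, without CPD exposed replicate 1, to 3.45, within title prefix 3046. With that block, 36 of 1050 ORs were higher and 15 lower at an unadjusted edgeR p under 0.05. All 5 musk ORs were among the 36, and no OR was called.

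Without the library labelled CPD exposed replicate 2, 1 of 1041 ORs was higher (0.0961%) and 0 were lower (0%). It was *Olfr1437*, with a log2 fold change of 3.34 (SE 0.58) and an edgeR adjusted p of 0.0157. CPD exposed replicate 2 was left out for its values here, so this fit's counts and p-values are a description and no test. This fit drops the exposed library of a pair and keeps its control: without both libraries of replicate 2 no OR was called (smallest edgeR adjusted p 0.755), and with all 6 libraries and the replicate number as a block none was called either (smallest edgeR adjusted p 0.779). When libraries were scaled by their OR totals alone, and without CPD exposed replicate 2, the smallest edgeR adjusted p was 0.0652 and no OR was called. In the fit above that called *Olfr1437*, the next lowest p belonged to *Olfr1440* (log2 fold change 2.85, SE 0.62, edgeR adjusted p = 0.113) and *Olfr1434* (2.41, SE 0.66, adjusted p = 0.617). *Olfr235* was at 1.99 (SE 0.70) and *Olfr1431* at 1.39 (SE 0.66), both with an edgeR adjusted p of 0.998. All 5 musk ORs were among the 8 higher ORs with an unadjusted p under 0.05, which is 0.768% of those tested. The other 3 were *Olfr1280*, *Olfr112* and *Olfr441*. The median over the musk list was 2.41, beside -0.01 over all ORs.

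**Figure D3:**
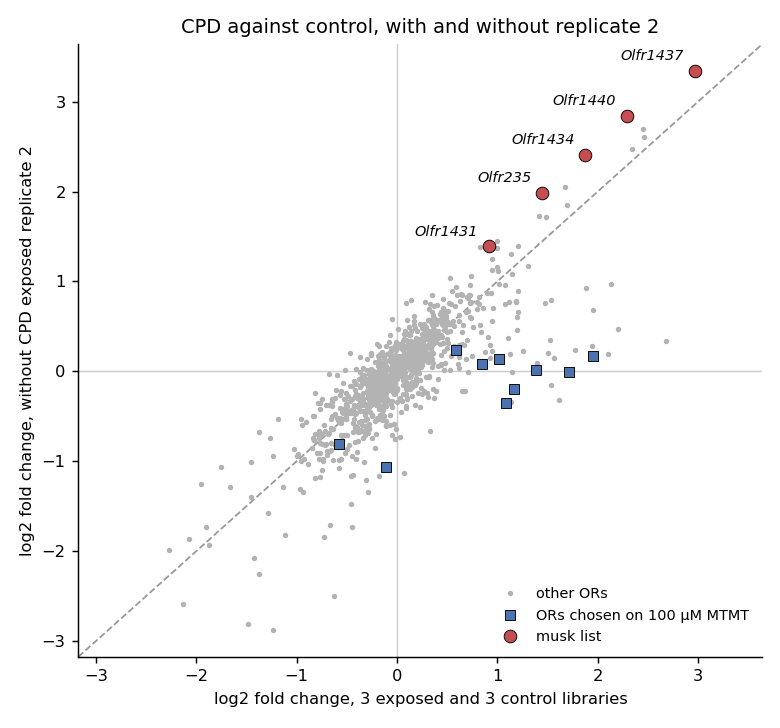
Log2 fold change of each OR after CPD against control from edgeR, with all 6 libraries (x axis) and without the library labelled CPD exposed replicate 2 (y axis); the dashed line marks equal values. The 5 musk ORs (red circles) lie above the line, up to 2.97 and 3.34 for *Olfr1437*, and the 10 ORs chosen on 100 μM MTMT (blue squares) have a median of 1.05 on the x axis and of 0.00 on the y axis.

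Because control replicate 1 was high for several musk ORs, the 3 controls of the 10 mM MTMT experiment, which used ethanol too per the study's methods and carry the same title prefixes, were added as further controls after the values had been seen. Without CPD exposed replicate 2, this fit called 3 of 1062 ORs higher (0.282%) and 0 lower, namely *Olfr1437*, *Olfr1440* and *Olfr235*. As the controls were changed because of their values at the musk ORs, these counts are a description and no test. With CPD exposed replicate 2 kept, 8 ORs were higher, of which *Olfr1437* alone was a musk OR. The others were *Olfr1195*, *Olfr1199*, *Olfr1220*, *Olfr325*, *Olfr328*, *Olfr329* and *Olfr330*.

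Of the 10 higher ORs with the lowest p in the 6 libraries, those other than *Olfr1437* had their largest exposed share in replicate 2, except *Olfr112*. *Olfr330* had 65, 94 and 82 reads in the controls and 57, 2554 and 232 in the exposed libraries, which is 0.094%, 1.75% and 0.227% of OR reads in the latter. *Olfr328* had 78, 93 and 124 against 105, 2053 and 264 reads, and *Olfr329* had 87, 130 and 118 against 108, 2246 and 233. These 3 genes are neighbours on chromosome 11, and *Olfr224* lies beside them. In each of them CPD exposed replicate 2 was far above the other CPD libraries. In the libraries labelled 10 mM MTMT exposed replicates 1, 2 and 3, *Olfr330* took 0.131%, 1.27% and 0.914% of OR reads. *Olfr328* took 0.155%, 1.53% and 0.457% there, and *Olfr329* took 0.0847%, 1.92% and 0.679%. None of the 3 exceeded 0.209% in the 10 mM MTMT controls. Their log2 fold changes after CPD were 2.69, 2.20 and 2.11 with all 6 CPD libraries. Without CPD exposed replicate 2 they were 0.34, 0.47 and 0.20, and none was called by edgeR (adjusted p = 0.993 and 0.998).

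*Olfr1195*, *Olfr1199*, *Olfr1220* and *Olfr1265*, all on chromosome 2, followed the same course at lower counts. *Olfr1195* had 11, 11 and 20 reads in the controls and 30, 242 and 40 in the exposed libraries, and *Olfr1265* had 14, 22 and 22 against 19, 305 and 67. In the libraries labelled 10 mM MTMT exposed replicates 1, 2 and 3, *Olfr1195* took 0.0146%, 0.113% and 0.0615% of OR reads. *Olfr1199* took 0.0175%, 0.106% and 0.0703% there, *Olfr1220* 0.0321%, 0.115% and 0.0736%, and *Olfr1265* 0.0248%, 0.121% and 0.0923%. None of the 4 exceeded 0.0537% in the 10 mM MTMT controls. Their 4 log2 fold changes after CPD lay between 1.54 and 2.14 with all 6 CPD libraries. Without CPD exposed replicate 2 they lay between 0.68 and 0.98. *Olfr1280* (39, 37 and 39 against 68, 232 and 120 reads; log2 fold change 1.20) and *Olfr112* (16, 14 and 14 against 26, 47 and 75; 1.14) were the ORs of this set that moved least on leaving out replicate 2. Without it their log2 fold changes were 0.90 and 1.31, with an edgeR adjusted p of 0.998.

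On the lower side no OR passed. The 5 with the lowest p were *Olfr961* (48, 39 and 29 reads in the controls, 17, 19 and 37 exposed, log2 fold change -1.24), *Olfr560* (-1.03), *Olfr1030* (-0.77), *Olfr1490* (-0.99) and *Olfr350* (-0.82), each with an edgeR adjusted p of 0.993. For all 5 every exposed share lay below every control share, as for 5.43% of all 1050 tested ORs. Without replicate 2 the 5 lowest p were those of *Olfr175* (65, 213 and 413 reads in the controls, 37, 537 and 158 exposed, log2 fold change -1.71), *Olfr355* (-2.81), *Olfr433* (-1.34), *Olfr531* (-1.15) and *Olfr353* (-1.18), with an edgeR adjusted p of 0.998. In *Olfr175* control replicates 1, 2 and 3 themselves spanned 0.123% to 0.598% of OR reads. Of the receptors followed for other odorants, *Olfr1295* had its exposed replicate 2 above every control, as given above. *Olfr1509* (MOR244-3), a known MTMT receptor, took 0.163%, 0.192% and 0.233% in the controls and 0.181%, 0.242% and 0.262% exposed. *Olfr910* took 0.0435%, 0.095% and 0.106% against 0.0594%, 0.0788% and 0.0684%, and *Olfr912* took 0.0529%, 0.0601% and 0.0652% against 0.0511%, 0.0459% and 0.0537%.

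With all 6 libraries none of the 1050 tested ORs was called (0%), musk ORs included, so the lack of calls below sets no OR apart. Within 1 Mb of *Olfr1437* or *Olfr235* the table holds 39 ORs, of which 34 are outside the musk list and 32 of those were tested. None of the 32 was called in either direction, and their log2 fold changes ran from -0.96 to 0.54 with a median of -0.14, beside -0.02 over all ORs. *Olfr1432*, *Olfr262* and *Olfr1441*, which lie between or directly beside the musk receptors, had log2 fold changes of -0.30, -0.18 and 0.22. *Olfr1432* and *Olfr262* had 24 and 26 reads in all 6 libraries together. Of the 137 class I ORs, taken by position on chromosome 7, 128 were tested. Of these 0 were called, as of all ORs (0%), and the median log2 fold change was -0.12.

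**Figure D4:**
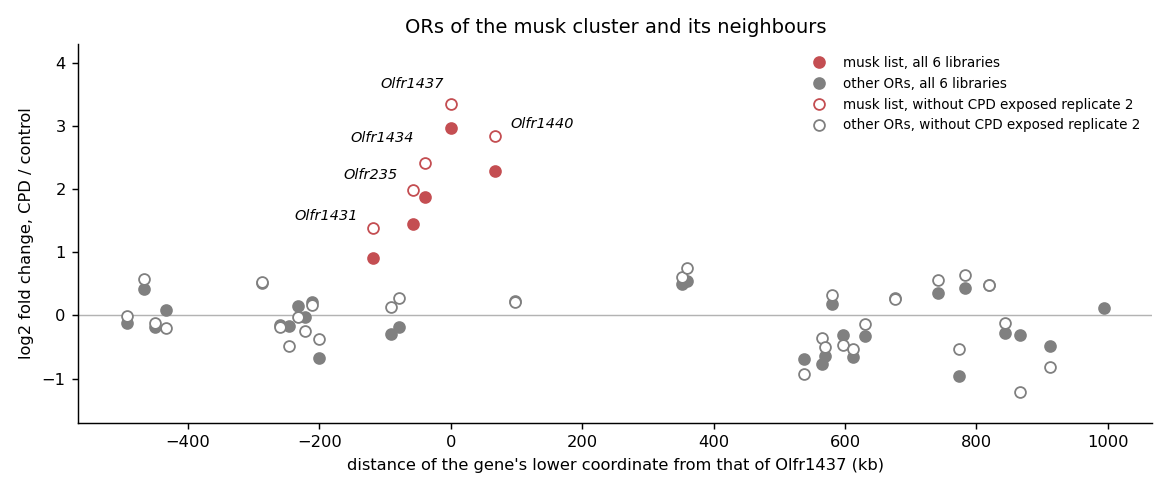
Log2 fold change after CPD against control (edgeR) of ORs within 1 Mb of *Olfr1437* or *Olfr235*, by the distance of the gene's lower coordinate from that of *Olfr1437* (kb). Filled circles use all 6 libraries and open circles leave out the library labelled CPD exposed replicate 2. The 5 musk ORs (red) have medians of 1.88 and 2.41, and the other ORs (grey) of -0.14 and -0.11.

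A test of the difference between the CPD effect and the 10 mM MTMT effect used the 12 libraries of both experiments. edgeR's quasi-likelihood test of this interaction called 0 of 1076 ORs higher and 0 lower (0% each), with 33 at an unadjusted p under 0.05. For the musk ORs the difference in log2 fold change, CPD minus MTMT, was -2.79 (SE 1.54) for *Olfr1437*, 0.44 (SE 1.45) for *Olfr1440*, -1.17 (SE 1.65) for *Olfr235*, -1.04 (SE 1.31) for *Olfr1431* and 0.90 (SE 1.20) for *Olfr1434*. With both the library labelled CPD exposed replicate 2 and that labelled 10 mM MTMT exposed replicate 1 left out, 0 of 1072 ORs were higher and 14 were lower (1.31%). Both libraries were singled out by their shares at ORs such as these, so this count is a description and no test. The 14 included *Olfr1295* (difference -2.38, SE 0.45), *Olfr224*, *Olfr328*, *Olfr329*, *Olfr330*, *Olfr1209*, *Olfr1395* and *Olfr315*. No musk OR was among them. *Olfr1440* had a difference of 3.31 (SE 0.88), *Olfr235* of 2.53 (SE 1.10) and *Olfr1434* of 2.10 (SE 1.06). *Olfr1437* stayed below 0 at -2.90 (SE 1.43), and the library labelled 10 mM MTMT exposed replicate 3 had 6.29% of its OR reads on this receptor.

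Outside the CPD and 10 mM MTMT experiments the musk ORs were low, though uneven between libraries. In the other 39 libraries, controls included, *Olfr1437* had a share of 0.00227% to 0.0849% with a median of 0.0462%, and all 3 CPD exposed libraries lay above that maximum. *Olfr1440* ran from 0.0317% to 0.143% with a median of 0.0685%, and the highest of these is a share that CPD exposed replicates 1 and 3 exceeded and replicate 2 did not reach. *Olfr235* (0.016% to 0.0844%, median 0.0409%) and *Olfr1431* (0.00127% to 0.0462%, median 0.0204%) were exceeded by CPD exposed replicates 1 and 3. For both, and for *Olfr1440*, CPD control replicate 1 exceeded the same maximum. *Olfr1434* (0% to 0.0507%, median 0.0154%) was higher than in CPD exposed replicate 3 in 3 of the 39.

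Summed over the 5 receptors, the share was 3.46% in CPD exposed replicate 1, 0.872% in replicate 3 and 0.941% in CPD control replicate 1. It was 2.43% and 6.42% in the libraries labelled 10 mM MTMT exposed replicates 1 and 3, and at most 0.31% in every other library but these 5. Over the 51 libraries, *Olfr235* was the OR most like *Olfr1440* in its log2 shares (Pearson's r = 0.824) and *Olfr235* was most like *Olfr1431* (r = 0.759), of 1102 ORs compared. *Olfr1437* was most like *Olfr926* (r = 0.747), which had 3 reads in CPD exposed replicate 1 and 0 in the other 5 CPD libraries. *Olfr926* also took 0.0253% in the library labelled 10 mM MTMT exposed replicate 3 and 0% in the other 10 mM MTMT libraries, controls included. *Olfr1434* was most like *Olfr457* (r = 0.557). These correlations describe libraries that share title prefixes and differ in depth, and are not tests.

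**Figure D5:**
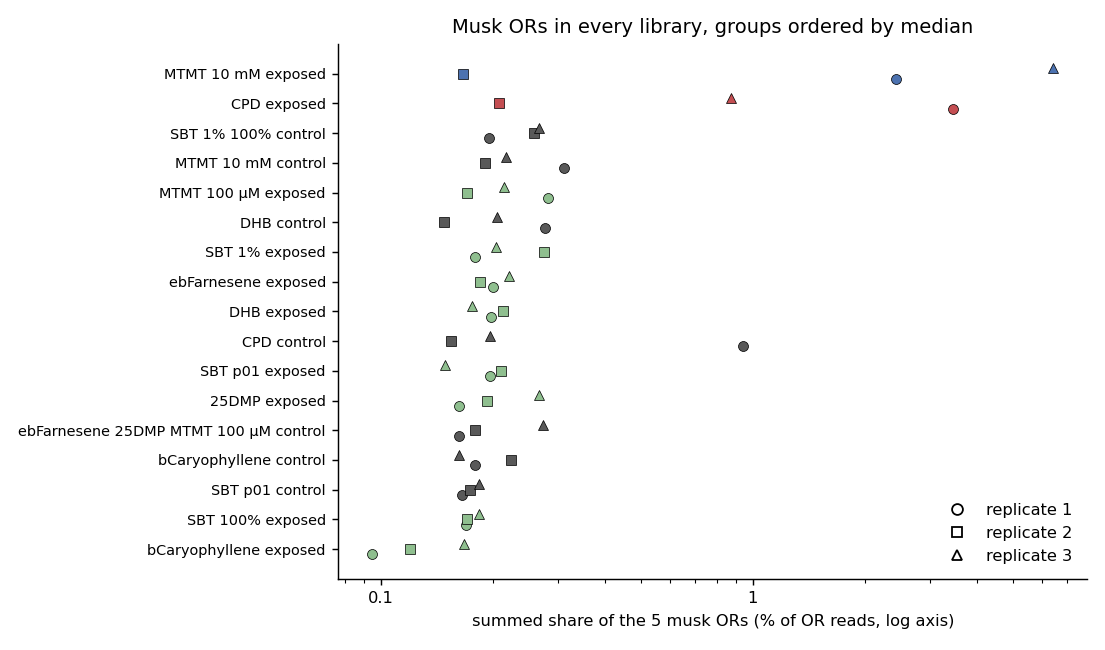
Summed share of the 5 musk ORs (% of OR reads, log axis) in each of the 51 libraries, 3 per group, with groups ordered by their median. Circles, squares and triangles are replicates 1, 2 and 3, red is CPD exposed, blue is 10 mM MTMT exposed, green is other odorants and grey is controls. Only 5 libraries exceed 0.31%: CPD exposed replicates 1 and 3, CPD control replicate 1 and the libraries labelled 10 mM MTMT exposed replicates 1 and 3.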

How the data were processed

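The authors used STAR to align pS6-IP-Seq reads to a GRCm38.p6 genome (annotation GENCODE M25, 1 gene model deleted) and deposited RSEM expected counts per OR gene as whole numbers, not normalized; versions are not given in the sources used here. Tables hold 1117 OR genes, so library totals are over OR reads. The authors' own comparison columns were not used, nor were 6 per-sample columns of another odorant's table, which match no label. Members, lists and tests were chosen with earlier results of these data known. Groups were tested in R 4.3.3 by edgeR 4.0.16 (a minimum of 10 reads per OR summed over libraries, TMM factors, glmQLFit, glmQLFTest, Benjamini-Hochberg over all ORs tested, threshold 0.05), tested on simulated data. Each SE of an edgeR log2 fold change is the absolute log2 fold change divided by the square root of the quasi-likelihood F statistic. Exact permutation tests (two-sided) used log2 shares per 100000 OR reads plus 5, and intervals on shares are 95% Wilson intervals (scipy 1.17.1).

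Named ORs were the musk list; the 10 higher and 5 lower ORs with the lowest p, with and without CPD exposed replicate 2; *Olfr1295*, *Olfr1509*, *Olfr910* and *Olfr912*; 5 ORs of 100 μM MTMT; those with the largest shares; and those most like a musk OR. Alternatives were DESeq2 1.42.0, other scalings, filters and tests, blocks, a single fit of 51 libraries and libraries left out. The study's text calls the mice litter matched. Deviations from group means of equal replicate numbers correlated by 0.318, 0.164 and 0.224 over 1050 ORs. Equal numbers were therefore read as pairs in the ratios and in the replicate block. The main edgeR fit and the exact permutation tests used no pairing. Positions and sequences came from GENCODE M21 and GRCm38, with IDs of all 1117 genes matched.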

Additional observations from a re-analysis of the deposited data

Results flagged for a closer look

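Outside the CPD comparison, musk ORs took larger shares of OR reads than in any of the 21 control libraries of the series in several exposed libraries. In the library labelled 10 mM MTMT exposed replicate 1, *Olfr235* was at 0.903%, *Olfr1431* at 0.244%, *Olfr1434* at 0.0453%, *Olfr1437* at 0.511% and *Olfr1440* at 0.729%. In the library labelled 10 mM MTMT exposed replicate 3, *Olfr1437* was at 6.29%. *Olfr1434* was at 0.0507% in 1% SBT exposed replicate 1, and *Olfr1437* was at 0.0849% in 100 μM MTMT exposed replicate 1. The highest control share was 0.0339% for *Olfr1434* and 0.0814% for *Olfr1437*, so the last 2 entries passed by less than the others. The share of all ORs above all 21 controls in these libraries is not given here, so these entries set no OR apart. What these shares come from was not tested.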

How the results depend on the processing

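With all 6 libraries, no OR was called by edgeR under the replicate block (0 ORs; smallest adjusted p 0.779, with 51 at an unadjusted p under 0.05), the title prefix block, library totals, upper-quartile factors or either other filter. With 4 libraries, none was called without both libraries of replicate 2 (0 ORs; smallest edgeR adjusted p 0.755) or within prefix 3046 (0 ORs; smallest edgeR adjusted p 0.998). DESeq2 and the likelihood ratio test called 1 each (*Olfr1437*), and a single fit of 51 libraries called 1 (*Olfr330*), or 2 (*Olfr1437* and *Olfr1440*) without CPD exposed replicate 2. Settings added after seeing the data gave, without that library, 2 by the likelihood ratio test, 1 by DESeq2 and 0 with library totals. Adding the 10 mM MTMT controls gave 8 higher ORs with it and 3 without it. All counts without CPD exposed replicate 2 are a description and no test, as it was left out for its values. Leaving out libraries gave 0 to 5 higher and 0 to 2 lower: 0 or 1 on leaving out any single library, and 5 and 2 on leaving out CPD exposed replicate 2 and CPD control replicate 1 together. Those 5 were the musk ORs, and as both libraries were left out for their values at these ORs, that count is a description and no test. For the difference from 10 mM MTMT, leaving out libraries gave 0 to 1 higher and 0 to 15 lower (14 with the pair named in the report), and the block gave 0.

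Directions changed for some ORs, none of them called with all libraries. Leaving out libraries moved the log2 fold change of *Olfr1440* between -0.060 (without CPD exposed replicate 1) and 3.57, of *Olfr433* between -1.61 and 0.43, of *Olfr531* between -1.48 and 0.024 and of *Olfr1295* between -0.24 and 1.56. Within prefix 3046 *Olfr175* was at 0.21 and *Olfr531* at 0.29. In the other settings without CPD exposed replicate 2 *Olfr1295* was at -0.20, -0.16, -0.31, -0.19, -0.18 and -0.21. The difference from 10 mM MTMT moved between -2.19 and 2.56 for *Olfr235* (0.23 with the replicate block), -1.56 and 2.27 for *Olfr1431*, -0.12 and 2.42 for *Olfr1434*, -4.27 and 2.57 for *Olfr1437* and -1.85 and 3.44 for *Olfr1440*, as libraries were left out. Of the repeats for single ORs, 708 kept their direction and side of the threshold, 28 kept their direction and newly passed it, and these 30 changed direction. The causes were not tested. Pseudocounts of 1 and 20 left the same number of musk ORs at the smallest exact p. With 10 reads or fewer, as for *Olfr1434* in 4 CPD libraries, depth is too low to order libraries.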
